A study of Mus musculus with 4 samples.

Results

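The genes described here are 8 genes of early granulocyte and monocyte surface and function: Ly6c1, Ly6c2, Trem1, Trem3, Clec12a, Igsf6, F13a1 and Hk3. They were selected by symbol from among the 26286 genes of the count table, out of a list drawn up with the difference between the 2 genotypes of this study already known. Their fold changes are therefore a description, carry no p-value and support nothing. All 8 were matched in the deposited tables, and all 8 passed the low-count filter that left 14912 tested genes. Not every product in the set sits at the cell surface: the F13a1 and Hk3 genes encode a transglutaminase and a cytosolic hexokinase.

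RNA sequencing was done on sorted LSK cells of mouse bone marrow, the lineage-negative cells with Sca-1 and Kit that hold the blood's stem cells and multipotent progenitors. All mice were of the C57BL/6 strain. One genotype is given as a deletion of Hhex, a homeobox transcription factor, and the other as wild-type, with 2 libraries of each. The labels name no Cre driver, treatment, age or pooling, and they do not state that each library had its own mouse. The tests therefore see only the spread from library to library, which may be technical in the wild-type pair.

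Granulocytes and monocytes descend from multipotent progenitors through committed precursors, and their surface receptors appear step by step along that path. Ly6c proteins are small GPI-anchored proteins by which mouse monocytes are sorted. TREM receptors carry a single immunoglobulin domain and signal through the adaptor DAP12 (Tyrobp) to the kinase Syk, whereas Clec12a, a C-type lectin-like receptor, is inhibitory and recruits the phosphatase SHP-1 (Ptpn6). Multipotent progenitors are known to carry transcripts of several blood lineages before they commit to one.

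Library totals ran from 27871827 to 29501591 counts. Counts of Hhex itself were higher, not lower, under the Hhex-deleted label: it had 179 and 188 CPM (the usual depth-scaled count, on TMM library sizes) under that label and 127 and 115 CPM in wild-type (log2 fold change 0.60 ± 0.09 SE, edgeR adjusted p = 0.0271, with 0.0575 and 0.148 when wild-type replicate 1 or 2 was left out). A count over a whole gene takes in exons that a partial deletion leaves, so it does not check the deletion, and the groups are called by their labels throughout. Labelled Hhex-deleted replicate 1 stood apart by sex transcripts. Xist was at 2662 CPM there and at 1.89 to 2.66 CPM elsewhere. The Y-linked Ddx3y was at 0.343 CPM there and at 124 to 138 CPM elsewhere. The pair under the Hhex-deleted label thus did not come from a single mouse, so its spread is not from technical sources alone. Kit, one of the sorting antigens, was at 566 to 698 CPM in the 4 libraries.

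Ly6c1 and Ly6c2 are near copies, and their sequences are shown first because they limit how far the reads of either gene can be told apart. The first 120 coding bases of each, from the GENCODE transcripts of GRCm38, are given with capitals at the 6 bases that differ.
Ly6c1: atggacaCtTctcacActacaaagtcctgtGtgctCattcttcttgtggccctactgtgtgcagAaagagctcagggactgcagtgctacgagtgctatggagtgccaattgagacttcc
Ly6c2: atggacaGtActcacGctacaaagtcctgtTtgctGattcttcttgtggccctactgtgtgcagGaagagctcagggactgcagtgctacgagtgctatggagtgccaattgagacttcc
Over the whole 396 coding bases 9 bases differed, which is 97.7% identity, and the longest run without a difference was 188 bases. Of all 50-base words of the Ly6c1 transcript, 31.7% also occurred in Ly6c2 and 5.03% in Ly6a, and 32.6% of those of Ly6c2 occurred in Ly6c1. How the authors treated reads that match several genes is not given in the sources used here, so the division of counts between Ly6c1 and Ly6c2 is uncertain. No 50-base word of the other 6 transcripts occurred in another gene.

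All 8 genes had lower levels in both libraries labelled Hhex-deleted than in either wild-type library. Fitted log2 fold changes (labelled Hhex-deleted over wild-type) ran from -1.74 for Trem3 to -0.81 for Hk3, with a median of -1.03, beside a median of -0.005 over all tested genes. The 8 levels summed to 1073 and 992 CPM under the Hhex-deleted label and to 1875 and 2262 CPM in wild-type. Groups that do not overlap with lower values under the Hhex-deleted label were found for 23.7% of all tested genes. An unadjusted edgeR p under 0.05, in either direction, was found for 2360 of the 14912 tested genes. At an edgeR adjusted p under 0.05, 1.12% of tested genes were lower and 1.48% were higher, and 7 of the 8 genes were among the lower; since the genes were chosen from this contrast, nothing is read from that count. It was 2 of 8 without labelled Hhex-deleted replicate 2 and 4 of 8 by limma on the deposited log2 RPKM values. In bulk libraries of sorted cells, fewer cells of a type and less RNA per cell cannot be told apart.

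**Figure D1:**
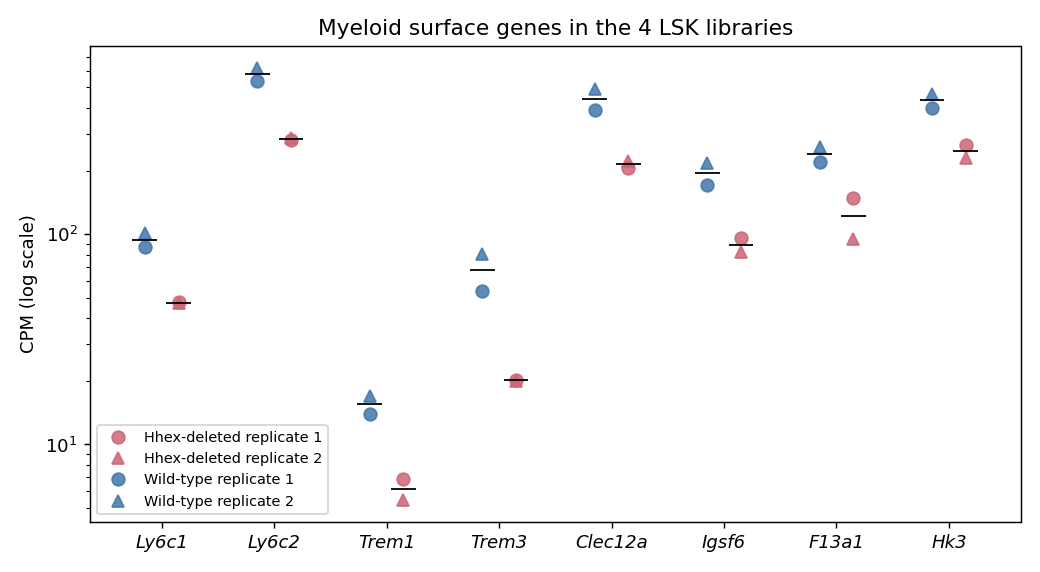
Level of each gene in each library, in CPM on a log axis; circles are replicate 1, triangles replicate 2, blue wild-type, red labelled Hhex-deleted, and black bars the means of 2 libraries. For every gene both red points lie below both blue points, and Trem1, between 5.44 and 17.0 CPM, lies lowest.

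Ly6c2 was the most abundant of the set. It had 281 and 288 CPM under the Hhex-deleted label and 539 and 622 CPM in wild-type, from 8204, 8685, 14773 and 17780 counts. Group means of 285 ± 4.96 and 581 ± 59.0 CPM (SD, n = 2 each) gave a log2 fold change of -1.03 ± 0.09 (SE). The pair under the Hhex-deleted label lay close together, and the wild-type pair lay further apart.

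Ly6c1 moved alongside its near copy. Its levels were 47.4 and 47.3 CPM under the Hhex-deleted label and 87.0 and 102 CPM in wild-type, for a log2 fold change of -0.99 ± 0.10 (SE). Counts of Ly6c2 over counts of Ly6c1 were 5.93 and 6.09 under the Hhex-deleted label and 6.19 and 6.13 in wild-type. With the counts of both genes added together the log2 fold change was -1.02.

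Trem3 and Trem1 are neighbouring genes of the TREM cluster. Trem1 encodes the receptor that amplifies inflammatory responses of neutrophils and monocytes, and Trem3 encodes a related DAP12-coupled receptor of mouse myeloid cells. Trem3 had 20.3 and 20.0 CPM under the Hhex-deleted label and 53.8 and 80.9 CPM in wild-type. Its log2 fold change of -1.74 ± 0.21 (SE) was the largest of the 8 in size, and its wild-type libraries differed by a factor of 1.5, the widest wild-type gap in the set.

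Trem1 had 200 and 164 counts under the Hhex-deleted label and 383 and 487 counts in wild-type. These were 6.85 and 5.44 CPM against 14 and 17.0 CPM, for a log2 fold change of -1.34 ± 0.20 (SE). It is the least abundant of the 8, and its groups did not overlap. Counts of Trem3 over counts of Trem1 were 2.96 and 3.68 under the Hhex-deleted label and 3.85 and 4.75 in wild-type, with no overlap.

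Clec12a, the inhibitory lectin-like receptor, is a marker of granulocyte and monocyte precursors. It had 207 and 223 CPM under the Hhex-deleted label and 390 and 493 CPM in wild-type. Group means of 215 ± 10.9 and 441 ± 72.8 CPM (SD, n = 2 each) gave a log2 fold change of -1.04 ± 0.13 (SE).

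Igsf6 encodes a surface protein with one immunoglobulin domain. Its levels were 95.9 and 82.2 CPM under the Hhex-deleted label and 171 and 219 CPM in wild-type, for a log2 fold change of -1.13 ± 0.14 (SE). Igsf6 overlaps Mettl9 on the opposite strand in the annotation. No 50-base word of the Igsf6 transcript occurred on either strand in a transcript of another gene. The overlap therefore holds no shared stretch of exon of that length in the GENCODE transcripts. The strand setting of the counting is not given in the sources used here. Mettl9, which encodes a methyltransferase, had 81.4, 82.6, 83.1 and 82.8 CPM in labelled Hhex-deleted replicates 1 and 2 and wild-type replicates 1 and 2.

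F13a1 encodes the A subunit of coagulation factor XIII, a transglutaminase that cross-links fibrin and is abundant in monocytes. It had 149 and 95.3 CPM under the Hhex-deleted label and 221 and 260 CPM in wild-type, for a log2 fold change of -0.97 ± 0.24 (SE). The spread between its 2 libraries labelled Hhex-deleted was the widest of the set in that group, and F13a1 was the gene of the 8 that missed the edgeR threshold.

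Hk3 encodes hexokinase 3, the form of the first glycolytic enzyme found in granulocytes and monocytes. It had 265 and 231 CPM under the Hhex-deleted label and 399 and 468 CPM in wild-type. Its log2 fold change of -0.81 ± 0.11 (SE) was the smallest in size of the 8.

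Set on RPKM, which divides counts by gene length so that genes can be compared, the wild-type levels ran over a wide range. Ly6c2 had 673 and 777 RPKM, at the 99.6th percentile of tested genes by its mean, and Clec12a had 179 and 226 RPKM. Hk3 followed with 126 and 148 RPKM and Ly6c1 with 103 and 120 RPKM. Igsf6 had 80.3 and 103 RPKM, up to the lower value of Ly6c1. Trem3 at 54.1 and 81.4 RPKM overlapped Igsf6 in range, and F13a1 at 56.2 and 66.2 RPKM lay within the range of Trem3. Within each wild-type library Ly6c1 was above Igsf6 and Igsf6 above Trem3. Trem3 and F13a1 changed places between the wild-type libraries. Trem1, at 4.65 and 5.67 RPKM and the 34.4th percentile, stood far below.

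Under the Hhex-deleted label the order by mean RPKM was the same as in wild-type except for a single exchange. F13a1 at 38.0 and 24.3 RPKM lay above Trem3 at 20.4 and 20.1 RPKM, as it also did in wild-type replicate 1. Ly6c2 held 50.7 and 53.2% of the summed RPKM of the 8 genes under the Hhex-deleted label and 52.7 and 50.9% in wild-type, so its share overlapped between the groups.

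The wild-type libraries themselves differed in these genes. Wild-type replicate 2 was above wild-type replicate 1 for 8 of 8 genes, by factors from 1.15 for Ly6c2 to 1.5 for Trem3, whereas 50.2% of all tested genes were higher in replicate 2. Labelled Hhex-deleted replicate 2 was above replicate 1 for 2 of 8 genes. Leaving out wild-type replicate 2 gave log2 fold changes of -0.87 for Ly6c1, -0.91 for Ly6c2, -0.85 for Clec12a and -1.41 for Trem3. Without that library Igsf6 was at -0.94, Trem1 at -1.18, F13a1 at -0.84 and Hk3 at -0.68. Leaving out labelled Hhex-deleted replicate 1, the library with high Xist, moved F13a1 to -1.33. Every value with a library left out stayed below 0, which follows from groups that do not overlap.

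**Figure D2:**
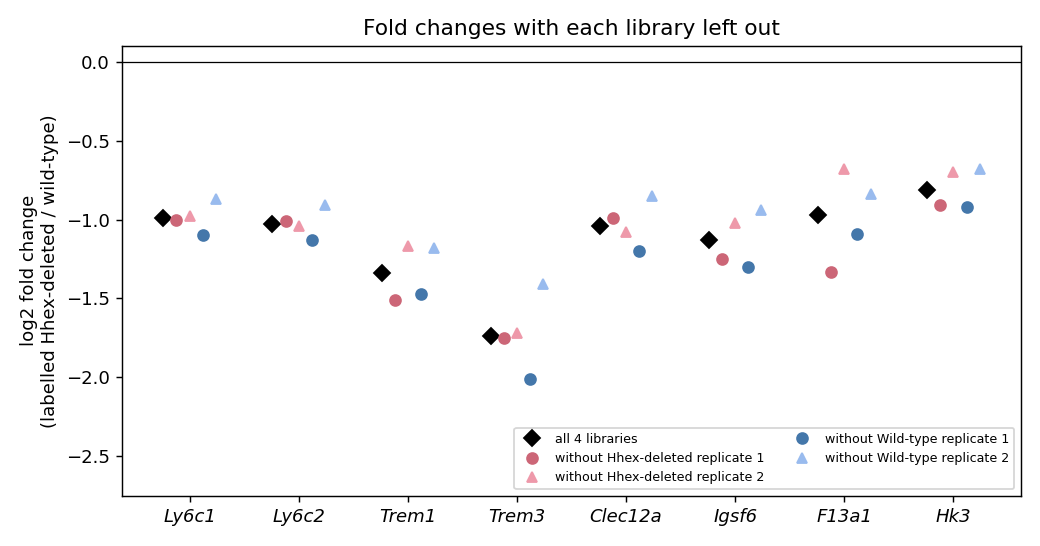
Fitted log2 fold change of each gene with all 4 libraries (black diamonds) and with each library left out in turn (circles and triangles). Trem3 runs from -2.01 to -1.41 and F13a1 from -1.33 to -0.68. No point reaches 0, which follows from groups that do not overlap.

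Markers of the other cell types that a marrow sort could hold were summed per library. The 14 mature neutrophil markers summed to 121 and 527 CPM under the Hhex-deleted label and 544 and 1108 CPM in wild-type, with 13 tested, 1 higher and 0 lower by edgeR, DESeq2 and limma-voom alike (1 of each by edgeR at an unadjusted p under 0.05). The gene called higher was Mmp9, a gelatinase. By limma on the deposited log2 RPKM values 0 of these markers were called higher, and the edgeR call did not hold when either wild-type library was left out. Of the 13 genes 10 were below 0, with a median log2 fold change of -0.94, close to that of the 8 genes. That median was -0.27 and -2.48 without labelled Hhex-deleted replicate 1 or 2, and -1.09 and -0.09 when wild-type replicate 1 or 2 was left out. S100a8, an abundant neutrophil calcium-binding protein, had 50.1 and 174 CPM against 268 and 462 CPM, and Ly6g, the defining neutrophil antigen, had 0 and 2 counts against 6 and 2. Labelled Hhex-deleted replicate 2 and wild-type replicate 1 were nearly alike in the neutrophil sum, at 527 and 544 CPM, while the 8 genes summed to 992 and 1875 CPM in them. Labelled Hhex-deleted replicates 1 and 2, with neutrophil sums of 121 and 527 CPM, had 1073 and 992 CPM of the 8 genes. The part of mature neutrophils in the levels of the 8 genes was not tested.

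The 12 macrophage markers summed to 108 and 117 CPM under the Hhex-deleted label and 110 and 126 CPM in wild-type, with 4 of 10 tested higher and 1 lower by edgeR. Their sums hid unequal changes: 1 of the 10 genes was below 0, and the median log2 fold change was 1.28. C1qa, C1qb and C1qc, the complement C1q chains made by macrophages, gave 2.27, 2.08 and 2.22 (edgeR adjusted p = 0.0227, 0.019 and 0.0132), and Hmox1, a heme oxygenase, 1.33 (adjusted p = 0.0126). Vcam1, an adhesion molecule, went the other way, with 22.3 and 23.4 CPM against 54.1 and 74.9 CPM (-1.50, adjusted p = 0.018). Without wild-type replicate 2, 1 macrophage marker was called higher, and without either library labelled Hhex-deleted 0 were called lower.

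The 9 mast cell and basophil markers summed to 1053 and 950 CPM against 327 and 337 CPM, with 5 of 8 tested higher and 0 lower by edgeR and limma-voom, 6 and 0 by DESeq2, and 0 lower at an unadjusted p under 0.05. The median log2 fold change was 2.11, and 1 of the 8 tested genes was below 0. Cpa3, a mast cell and basophil protease, was at 578 and 533 CPM against 125 and 106 CPM. Hdc went the other way, with 114 and 75.7 CPM against 119 and 149 CPM (-0.50, edgeR adjusted p = 0.438). Tpsb2, which was not tested, had 0 and 0 counts against 6 and 5. The part of these cells in the levels of the 8 genes was not tested.

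**Figure D3:**
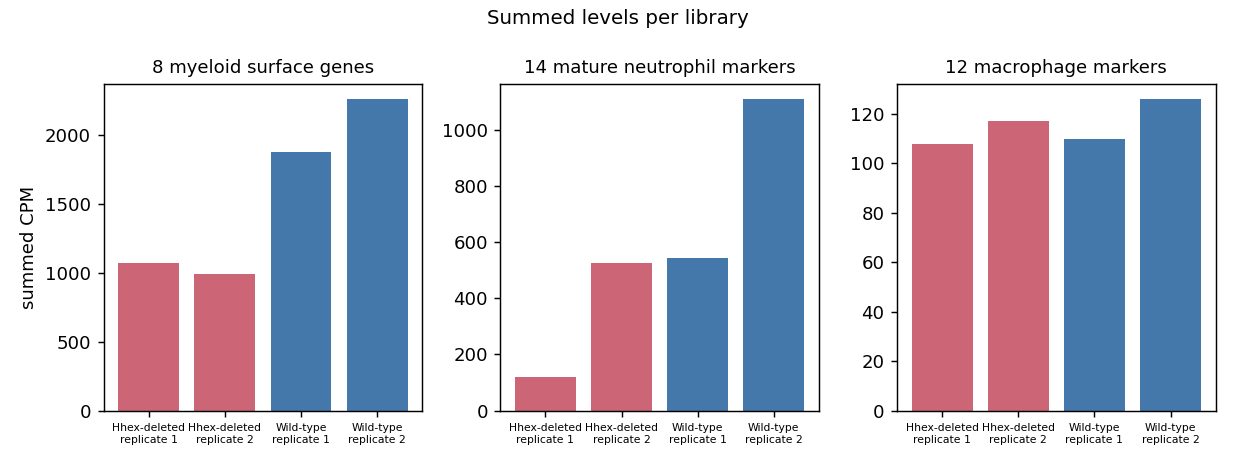
Summed CPM per library of the 8 genes, of 14 mature neutrophil markers and of 12 macrophage markers, each on its own axis from 0. The 8 genes separate the groups, the neutrophil markers put labelled Hhex-deleted replicate 2 (527 CPM) beside wild-type replicate 1 (544 CPM), and the macrophage sum runs from 108 to 126 CPM although the median log2 fold change of its tested genes is 1.28.

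The neighbouring genes of the Ly6 and Trem clusters were compared in gene order, taken from the mouse assembly GRCm38. In the Ly6 cluster, Ly6c1 and Ly6c2 lie between Ly6a and I830127L07Rik. Ly6a, which encodes the sorting antigen Sca-1, had 20.7 and 42.5 CPM under the Hhex-deleted label and 25.4 CPM in each wild-type library, and did not pass the test (log2 fold change 0.31 ± 0.37 SE, edgeR adjusted p = 0.801). Its direction rested on 1 library: the value was 0.74 (adjusted p = 0.0246) with labelled Hhex-deleted replicate 1 left out and -0.29 (adjusted p = 0.391) with replicate 2 of that label left out. Ly6e, another GPI-anchored protein of the family, was far more abundant at 901 to 1208 CPM and gave 0.27 ± 0.10 (adjusted p = 0.242). I830127L07Rik gave -0.68 ± 0.21 (adjusted p = 0.203), and it shares 0.388% of the 50-base words of Ly6c2.

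In the Trem cluster, A530064D06Rik and then 9830107B12Rik lie next to Trem1. They had 8 to 42 counts and gave -1.22 ± 0.49 (edgeR adjusted p = 0.305) and -1.23 ± 0.42 (adjusted p = 0.219), the direction of Trem1 but without passing the test. Treml4, next to Trem3, gave -0.21 ± 0.46 (adjusted p = 0.897). Treml2, a TREM-like receptor, lies beyond Treml4 and had 294, 284, 271 and 275 CPM, for a log2 fold change of 0.08 ± 0.07 (edgeR adjusted p = 0.705). Trem2, the lipid-sensing receptor of macrophages, had 25 and 30 counts against 34 and 37 (-0.45 ± 0.32, adjusted p = 0.605), and Treml1, a platelet receptor, gave 0.53 ± 0.27 (adjusted p = 0.445). B430306N03Rik gave -1.0 ± 0.33 (adjusted p = 0.217). Beside F13a1 lies Ly86, which encodes the MD-1 partner of a Toll-like receptor homologue, with 16.9 and 11.4 CPM against 27.0 CPM in both wild-type libraries (-0.93 ± 0.20, adjusted p = 0.0757, or 0.0115 with labelled Hhex-deleted replicate 1 left out). These uncharacterised genes and Ly86 were named after their values were seen.

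**Figure D4:**
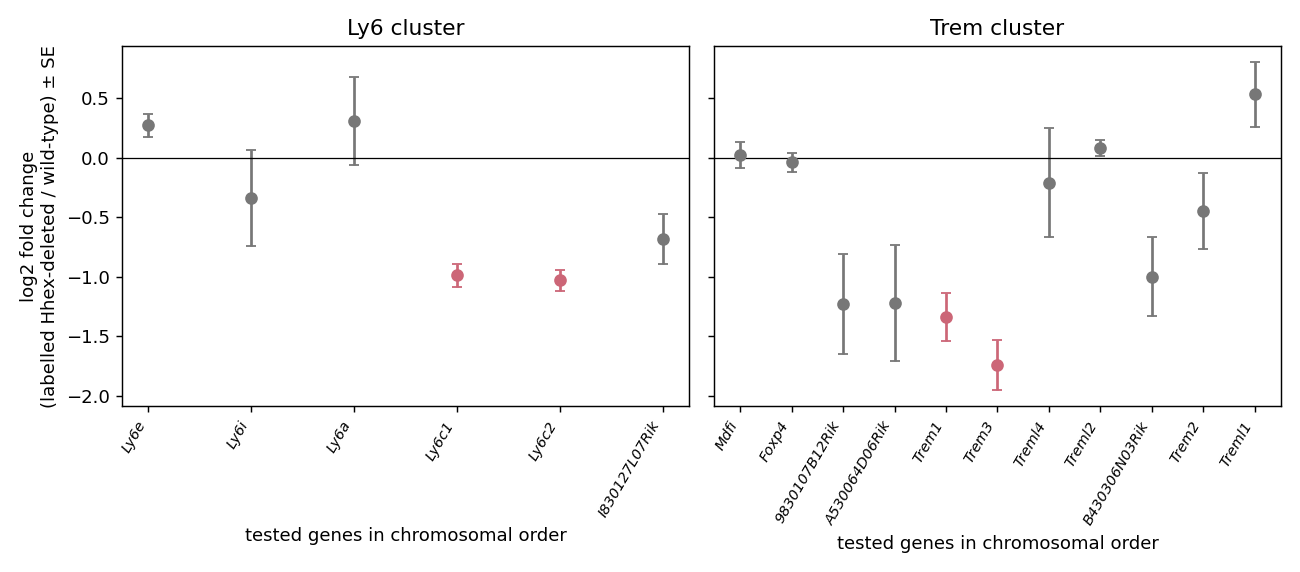
Log2 fold change (labelled Hhex-deleted over wild-type) with its SE for the tested genes of the Ly6 and Trem clusters in chromosomal order; red points are the described genes and grey points their neighbours. Ly6c1, Ly6c2, Trem1 and Trem3 lie at -0.99 to -1.74, with Ly6a at 0.31 before Ly6c1, A530064D06Rik at -1.22 before Trem1 and Treml4 at -0.21 after Trem3.

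Related genes were read from lists of receptors and signalling proteins. Over 4 lists together (Ly6 family, TREM and DAP12 pathway, C-type lectins and their phosphatases, granulocyte and monocyte receptors), 85 of 104 genes were tested. By edgeR 0 rose and 5 fell, with 8 higher and 23 lower at an unadjusted p under 0.05, and the median log2 fold change was -0.18. Over all tested genes, 2360 of 14912 had an unadjusted edgeR p under 0.05 in either direction, the background for such counts in each list. DESeq2 called 4 higher and 16 lower and limma-voom 0 and 5. The 5 that fell were Clec5a, Mgl2, Csf2ra, Csf3r and Il6ra. Without labelled Hhex-deleted replicate 1 the edgeR counts were 5 higher and 10 lower, and without wild-type replicate 2 they were 1 and 3. The median was -0.08 and -0.05 without these libraries.

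Among the TREM and DAP12 pathway, 13 of 14 genes were tested, 0 rose and 1 fell, with 0 higher and 3 lower at an unadjusted p under 0.05. DESeq2 called 0 higher and 3 lower, limma-voom 0 and 1, and the median log2 fold change was -0.21. Without labelled Hhex-deleted replicate 1, edgeR called 2 lower and the median was -0.09, and without wild-type replicate 2 the median was -0.08. Clec5a, a DAP12-coupled lectin of myeloid cells, fell from 40.2 and 51.4 CPM in wild-type to 17.6 and 17.2 CPM (-1.40 ± 0.14 SE, edgeR adjusted p = 0.0121). It passed the threshold with each library left out. The adaptor Tyrobp itself had 74.3 and 70.2 CPM against 88.0 and 101 CPM and did not pass (-0.39 ± 0.09, adjusted p = 0.103), and Syk, the kinase it engages, gave -0.07 ± 0.07 (adjusted p = 0.74).

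Card9, the adaptor downstream of Syk, had 61.6 and 37.1 CPM against 90.5 and 105 CPM (-0.98 ± 0.27, edgeR adjusted p = 0.204, or 0.0064 with labelled Hhex-deleted replicate 1 left out). Its libraries under the Hhex-deleted label were far apart, as were those of F13a1, with replicate 1 the higher of the 2 for both genes.

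Of the C-type lectins and their phosphatases, 19 of 21 were tested, 0 rose and 1 fell by edgeR, with 2 higher and 7 lower at an unadjusted p under 0.05. The median was -0.10, turning to 0.04 without wild-type replicate 1 and -0.06 when either labelled Hhex-deleted replicate 1 or instead wild-type replicate 2 was left out. DESeq2 called 1 higher and 4 lower, and limma-voom 0 and 1. Mgl2, a galactose-binding lectin of dendritic cells and macrophages, fell from 30 and 43.5 CPM to 9.32 and 12.2 CPM (-1.77 ± 0.23, adjusted p = 0.0266), a call lost without either library labelled Hhex-deleted (adjusted p = 0.0918 and 0.0808). Clec11a, a secreted lectin that acts as a growth factor, gave -1.19 ± 0.22 (adjusted p = 0.0511) and Clec4e, a receptor for mycobacterial glycolipid, 0.79 ± 0.18 (adjusted p = 0.102), so neither passed. Without labelled Hhex-deleted replicate 1, Clec4e passed (adjusted p = 0.00711), and edgeR called 2 of the lectin list higher. Ptpn6, the phosphatase recruited by Clec12a, gave -0.10 ± 0.08 (adjusted p = 0.662).

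Of the granulocyte and monocyte receptors, 42 of 44 were tested, 0 rose and 3 fell, with 5 higher and 12 lower at an unadjusted p under 0.05, and the median log2 fold change was -0.19. DESeq2 called 3 higher and 8 lower, and limma-voom 0 and 3. Without labelled Hhex-deleted replicate 1, edgeR called 6 lower. Without wild-type replicate 2 it called 1 higher and 1 lower, with a median of -0.03, and the median was -0.32 when either labelled Hhex-deleted replicate 2 or instead wild-type replicate 1 was left out. Il6ra, the receptor chain for interleukin 6, fell from 55.8 and 60.4 CPM to 27.7 and 22.9 CPM (-1.20 ± 0.12, edgeR adjusted p = 0.0118) and passed with each library left out. Csf2ra, the receptor chain for GM-CSF, fell from 124 and 136 CPM to 77.8 and 82.7 CPM (-0.70 ± 0.08, adjusted p = 0.019, 0.0987 without wild-type replicate 2). Csf3r, the G-CSF receptor, gave -0.52 ± 0.09 (adjusted p = 0.0459) and missed the threshold with any library left out.

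In the Ly6 family, 11 of 25 genes were tested and 0 passed in either direction by edgeR, with 1 higher and 1 lower at an unadjusted p under 0.05. DESeq2 called 0 higher and 1 lower, and limma-voom 0 and 0. The median log2 fold change was 0.31, and without labelled Hhex-deleted replicate 2 it was -0.02. Without labelled Hhex-deleted replicate 1, edgeR called 3 higher (Ly6a, Ly6d and Lypd6b) and 1 lower (Plaur). Plaur, the urokinase receptor of this family, gave -0.81 ± 0.20 with all libraries (adjusted p = 0.116) and -1.10 in that setting (adjusted p = 0.0342).

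Of the relatives of Hk3 and F13a1, 6 of 13 were tested, with 0 higher and 1 lower by edgeR (1 higher and 3 lower at an unadjusted p under 0.05, with 0 and 1 by DESeq2 and 0 and 0 by limma-voom). Hk1, the hexokinase of most tissues, gave 0.19 ± 0.11 (adjusted p = 0.526) and Hk2, the form induced in growing cells, -0.27 ± 0.11 (adjusted p = 0.292). Tgm2, a tissue transglutaminase, fell from 24.1 and 29.6 CPM to 15.5 and 12.4 CPM (-0.94 ± 0.16, adjusted p = 0.0468). It missed the threshold when labelled Hhex-deleted replicate 2 or either wild-type library was left out.

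Primary granules are the enzyme stores that promyelocytes make, and a list named for them was compared in the same way. Not every product on that list is stored in these granules. Of 14 such genes 13 were tested, 0 rose and 5 fell by edgeR, 0 and 10 at an unadjusted p under 0.05, with a median log2 fold change of -0.73 and all 13 below 0. DESeq2 called 0 higher and 9 lower and limma-voom 0 and 4. Elane, neutrophil elastase, fell from 2279 and 3121 CPM to 1075 and 1048 CPM (-1.35 ± 0.16, edgeR adjusted p = 0.0226). Hp (haptoglobin, -1.41 ± 0.20, adjusted p = 0.0444), Ms4a3 (a membrane protein of granulocyte and monocyte precursors, -1.14 ± 0.15, adjusted p = 0.0253), Prss57 (a serine protease, -1.06 ± 0.15, adjusted p = 0.0358) and Nkg7 (a granule membrane protein, -0.56 ± 0.09, adjusted p = 0.0421) fell too. None of these 5 passed the threshold when either library labelled Hhex-deleted was left out. Their adjusted p then ran from 0.069 to 0.218 without replicate 1 and from 0.0594 to 0.317 without replicate 2. Over the whole list edgeR called 4 other genes lower without replicate 1 and 0 without replicate 2. Without either wild-type library it called 4 lower, which were Elane, Hp, Ms4a3 and Prss57.

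Of 14 myeloid transcription factors, all tested, 0 rose and 1 fell by edgeR, with 1 higher and 5 lower at an unadjusted p under 0.05 and a median of -0.57. DESeq2 called 1 higher and 6 lower, and limma-voom 0 and 1. The median was -0.26 and -0.36 without wild-type replicate 1 or 2. edgeR called 3 lower when replicate 1 of either genotype label was left out, and 0 when replicate 2 of either was. Cebpb, the factor of emergency granulopoiesis, fell from 23.5 and 21.7 CPM to 13.5 and 11.6 CPM (-0.84 ± 0.14, adjusted p = 0.0382), and missed the threshold when labelled Hhex-deleted replicate 2 or either wild-type library was left out. Spi1, which encodes PU.1, gave -0.51 ± 0.10 (adjusted p = 0.0653) and Irf8, a factor of monocyte fate, -0.75 ± 0.14 (adjusted p = 0.0642), so neither passed with all 4 libraries. Without labelled Hhex-deleted replicate 1 both passed (adjusted p = 0.0314 and 0.0165). Gata2, a factor of stem, mast and megakaryocytic cells, gave 0.76 ± 0.15 (adjusted p = 0.0727).

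**Figure D5:**
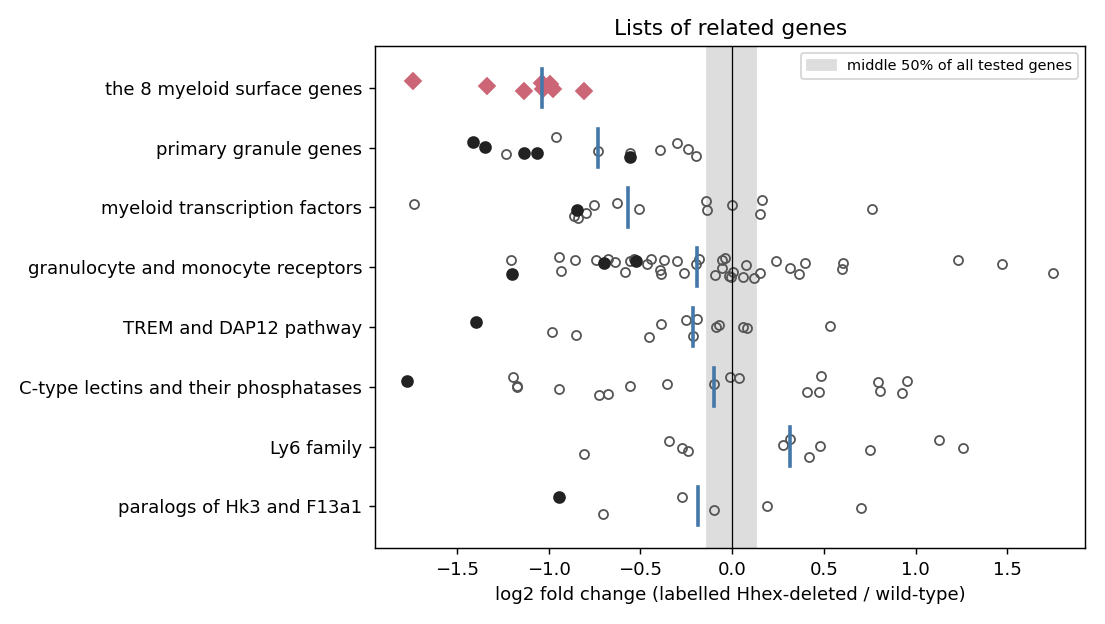
Log2 fold change of each tested gene by list; red diamonds are the 8 described genes, filled circles genes past the edgeR threshold, open circles the others, blue bars the medians, and the grey band the middle 50% of all tested genes. The median of the 8 genes is -1.03, the other medians run from -0.73 for primary granule genes to 0.31 for the Ly6 family, and every filled circle lies below 0.

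The genes whose pattern over the 4 libraries was most like the mean profile of the 8 were found among those with a mean of at least 10 CPM. Likeness was the root mean square distance of log2 CPM after centring each gene over its 4 libraries, with n = 4 libraries. Arhgap31 came closest at 0.0194, with 16.0 and 14.1 CPM under the Hhex-deleted label and 28.6 and 36.5 CPM in wild-type. The next were 1700020L24Rik (0.0237), Ms4a3 (0.0311), Dram1, a lysosomal membrane protein (0.0409), Sorl1, a sorting receptor (0.0466), and Mgam, a glucosidase (0.0513). Of the 8 genes, Igsf6 lay nearest their own mean at 0.0272 and Trem3 furthest at 0.310.

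The promoters of these genes are shown because the 8 genes were all lower in the same libraries. A RefSeq table of the GRCm38.p6 build held windows from 250 bases before to 50 after the start site for 7 of the 8 genes (not Trem3), in 10 windows. The 250 bases before the most upstream start site listed for each of 5 genes follow, 5′ to 3′ on the gene's strand, with capitals at GAGGAA or its complement TTCCTC, the core bound by PU.1, and at TTGCNNAA, a C/EBP motif.
Ly6c1, chr15:75048838-75049087 (minus strand): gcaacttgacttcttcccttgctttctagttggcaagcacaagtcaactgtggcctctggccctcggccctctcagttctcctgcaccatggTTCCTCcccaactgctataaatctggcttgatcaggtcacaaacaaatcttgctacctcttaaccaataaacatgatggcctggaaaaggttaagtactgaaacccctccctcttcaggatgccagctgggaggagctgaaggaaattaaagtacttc
Ly6c2, chr15:75111972-75112221 (minus strand): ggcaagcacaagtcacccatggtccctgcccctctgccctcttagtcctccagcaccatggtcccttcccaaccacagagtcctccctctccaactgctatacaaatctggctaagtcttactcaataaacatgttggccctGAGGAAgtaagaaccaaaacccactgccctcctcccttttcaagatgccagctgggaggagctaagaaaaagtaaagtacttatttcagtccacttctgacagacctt
Clec12a, chr6:129349994-129350243 (plus strand): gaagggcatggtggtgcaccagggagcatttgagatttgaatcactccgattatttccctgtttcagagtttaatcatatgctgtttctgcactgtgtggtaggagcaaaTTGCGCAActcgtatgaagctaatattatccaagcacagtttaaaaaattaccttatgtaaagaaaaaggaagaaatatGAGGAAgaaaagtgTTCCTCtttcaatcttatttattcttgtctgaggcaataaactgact
Igsf6, chr7:121074531-121074780 (minus strand): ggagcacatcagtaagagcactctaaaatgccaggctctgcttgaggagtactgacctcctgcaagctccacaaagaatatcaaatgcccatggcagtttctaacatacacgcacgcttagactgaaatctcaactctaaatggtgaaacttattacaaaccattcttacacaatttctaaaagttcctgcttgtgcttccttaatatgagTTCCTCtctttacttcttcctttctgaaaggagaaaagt
Trem1, chr17:48232489-48232738 (plus strand): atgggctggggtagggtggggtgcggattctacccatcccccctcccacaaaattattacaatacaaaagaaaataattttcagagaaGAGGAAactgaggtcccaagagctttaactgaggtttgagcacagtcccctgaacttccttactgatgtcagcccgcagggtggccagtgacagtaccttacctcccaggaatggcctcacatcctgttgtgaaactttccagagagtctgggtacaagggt
GAGGAA on either strand occurred in 10 of the 10 windows, from 7 genes, and in 28.3% of all 32851 windows of the table. The 10 are not separate sequences: the windows of Ly6c1 overlap each other, as do those of Ly6c2, and these genes are near copies. In the downstream F13a1 window the only match lay after the start site, at bases 14 to 19. In Clec12a it stood on both strands, at bases -61 to -56 and -47 to -42 from the start site. TTGCNNAA occurred in 1 of the 10 windows, that of Clec12a, at bases -140 to -133, and in 10.8% of all windows. The motif of interferon regulatory factors, GAAA and again GAAA after a gap of 2 bases, occurred in 0 of the 10 windows and in 3.44% of all windows. ATTAA, a core bound by homeodomain proteins, occurred in 4 of the 10 windows, from 3 genes (Clec12a, Igsf6 and Ly6c1), and in 27.1% of all windows. These matches are of letters alone, and no binding was measured here.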

How the data were processed

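Per the labels' protocols, libraries were built with the TruSeq RNA kit of Illumina from RNA of sorted LSK cells. The authors deposited raw read counts per Entrez gene for 4 libraries and, for each library, log2 RPKM values of 12662 genes. Per the submitters' processing notes, Subread, featureCounts, limma and the build mm9 were used, with no versions or roles given. The sorted deposited log2 RPKM values, with gene length added back, had a median range of 0.000809 over the libraries, so they had been brought to one distribution. Counts were therefore used for all main values.

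The members and lists were chosen with earlier results of these data known. Libraries were grouped by title. Of 26286 genes, 6804 had no read. Symbols were found for 24397 identifiers, from the deposited tables (18 symbols turned into dates were replaced) and a RefSeq gene table of GRCm38, which served for names and gene order only. The 1889 identifiers without a symbol held 2.25% of counts and stayed in totals and tests.

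Total counts were 29501591 and 29372938 under the Hhex-deleted label and 27871827 and 28584399 in wild-type. A floor of 3 counts was 0.0995 to 0.109 CPM, for counting error only. In R 4.3.3, edgeR 4.0.16 was run over 14912 genes (filterByExpr with a minimum count of 10 and total of 15, TMM scaling, robust quasi-likelihood test with group as the single term, prior count 0.125), with Benjamini-Hochberg adjustment over all tested genes and calls at an adjusted p under 0.05. edgeR's biological coefficient of variation came to 16.3%. SEs are approximate, as the absolute fold change (log2) over the square root of F. The scripts were tested on simulated data.

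Named genes are the 8 genes, Hhex, Tyrobp, Ptpn6, Mettl9, Ly6a, up to 4 genes of each list by smallest unadjusted p, the relatives of the 8 genes, and the 6 genes of most similar pattern. Xist, Ddx3y, Nr4a1, Klf4, Cd69, Ly86, Hp, Prtn3, Ctsg, I830127L07Rik, B430306N03Rik, A530064D06Rik, 9830107B12Rik and the marker genes given by name were added after values were seen. Alternatives were DESeq2 1.42.0, upper-quartile factors, no low-count filter, limma-voom and limma 3.58.1 on the deposited log2 RPKM values, a prior count of 2, a replicate block, and each library left out. When a library was left out, the lone library of its group was assumed to vary like the other pair. No genome of build mm9 was used here.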

Additional observations from a re-analysis of the deposited data

How the results depend on the processing

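Of 89 log2 fold changes of the 8 genes under the alternatives, 89 were below 0 and 84 lay within 1 SD of the reported value. The other 5, given in the report, came from leaving out wild-type replicate 2 (4 genes) or labelled Hhex-deleted replicate 1 (F13a1). With a library left out both outcomes were nearly fixed in advance. The groups do not overlap for any of the 8 genes, and leaving out 1 of 2 libraries moves a value by about 1 SD at most. Over all tested genes, where 221 were called higher and 167 lower, DESeq2 called 493 and 495, limma on the deposited log2 RPKM values 114 and 65, and edgeR without the low-count filter 284 and 272. With a library left out the counts ran from 84 to 366 higher and from 40 to 231 lower; both lowest values were without wild-type replicate 2 and both highest without labelled Hhex-deleted replicate 1. Of the genes of the 4 related lists (0 higher, 5 lower), DESeq2 called 4 higher and 16 lower and limma on log2 RPKM 3 lower, and with a library left out the counts ran from 0 to 5 higher and from 3 to 10 lower. Their median of -0.18 ran from -0.28 to -0.05. The cause of these shifts was not tested.

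The labels number the replicates but name no shared animal, litter or day. Deviations of same-numbered libraries from their group means correlated at 0.326 over 14912 genes, with only 2 pairs, so the numbers were not taken to pair the libraries. With a replicate block, edgeR called 185 genes higher and 130 lower over all genes, and 0 and 5 in the 4 related lists, with a median of -0.19. It called 4 of the 8 myeloid surface genes and 3 of the primary granule list lower, and 1 higher and 3 lower among the myeloid transcription factors. Of the genes named, Irf8 (adjusted p = 0.0364) and Gata2 (adjusted p = 0.0254) passed under it, and Hhex, Arhgap31, Csf3r, Hp, Ms4a3 and Tgm2 no longer did (adjusted p from 0.0514 to 0.0908). By limma on the deposited log2 RPKM values 0 of the primary granule list were called.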

Other observations

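Some genes followed the replicate number and not the genotype label. Nr4a1, an immediate early nuclear receptor, had 213 and 2.82 CPM in labelled Hhex-deleted replicates 1 and 2 and 712 and 4.48 CPM in wild-type replicates 1 and 2. Cd69, an early activation antigen whose gene lies near Clec12a, had 100 and 21.4 CPM and 131 and 24.8 CPM in the same libraries. Klf4, a factor of monocyte fate and also an immediate early gene, had 18.7 and 3.62 CPM and 28.2 and 6.27 CPM. In each of these 3 genes both first replicates were above both second replicates. Of the 8 myeloid surface genes none had that order, since each was higher in wild-type replicate 2 than in wild-type replicate 1.

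Prtn3 and Ctsg, proteases of the primary granules, did not pass the test, with log2 fold changes of -1.23 ± 0.22 (SE, edgeR adjusted p = 0.0757) and -0.96 ± 0.18 (adjusted p = 0.0702).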
